A study of Mus musculus with 27 samples.

Results

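Methylation was described at the clustered replication-dependent histone genes of mouse chromosome 13 (the Hist1 genes), which lie in 2 stretches of mm10, 21710000 to 22045000 and 23530000 to 23770000. Every measured position in these stretches with a value in all 27 libraries was taken, whatever its level. This gave 427 of the 871894 such positions of the genome, at 344 CpG sites, and they fell into 22 of the genome's 18447 runs (positions joined over gaps of at most 200 bp, with at least 3 positions). The cells were C2C12 myoblasts, an established mouse muscle line, differentiated in 2% horse serum and then given 50% horse serum for 2 h, a shock used to set cultured cells to a common circadian phase. DNA methylation was read by reduced representation bisulfite sequencing (RRBS), which samples CpG-rich fragments next to the cut sites of a restriction enzyme. The 9 groups were cells 12, 18, 24, 30, 36, 42, 48, 54 and 60 h after the shock, with 3 libraries each. All groups had the same differentiation and the same shock, and unshocked cells were not analysed here. Time after the shock is also time in culture, and which of them a change would follow was not tested. Whether the replicates were separate cultures is not given in the labels, so p-values measure the spread between these libraries, which may be technical.

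Histones package DNA into nucleosomes. An octamer of the core histones H2A, H2B, H3 and H4 carries the DNA, and the linker histone H1 binds where the DNA enters and leaves. The genes in these clusters are short and intronless, are transcribed mainly while DNA is replicated, and give messages that end in a stem-loop in place of a poly(A) tail. Cells that have left the cell cycle, as myotubes have, draw more on histone variants transcribed outside S phase.

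Of 51 replication-dependent histone genes in the 2 stretches, 17 had a kept position within 500 bp. By family these were all 5 H1 genes, 0 of 12 H2A genes, 3 of 14 H2B genes, 4 of 9 H3 genes and 5 of 11 H4 genes. Of the 22 runs, 19 lay at histone genes and 3 at other genes of the stretches, Zfp184, Pom121l2 and Hfe. The label of a histone cluster therefore holds for most runs, but it covers the linker histone and H4 genes far more than the H2A and H2B genes. None of the 34 tRNA genes between the histone genes had a kept position within 500 bp.

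Promoter sequences were matched to the members to show what was and was not sampled. RefSeq promoters of GRCm38.p6 (250 bases before to 50 after the start) were at hand for 48 of the 51 genes, 49 promoters in all. The enzyme site CCGG, as MspI cuts it, occurred in 4 of 5 H1 promoters, 7 of 11 H4 promoters and 2 of 7 H3 promoters, but in 0 of 12 H2A and 0 of 14 H2B promoters. Of all 32851 promoters in the table, 52.8% held it. It occurred in 11 of 15 promoters of genes with a kept position near and in 2 of 34 promoters of genes without one. Shown here are the 250 bases before the start of the 6 histone genes with at least 5 kept CpGs (a value in all 27 libraries) in that stretch. They run 5′ to 3′ on the gene's strand, with each kept CpG in capitals.
H4c1: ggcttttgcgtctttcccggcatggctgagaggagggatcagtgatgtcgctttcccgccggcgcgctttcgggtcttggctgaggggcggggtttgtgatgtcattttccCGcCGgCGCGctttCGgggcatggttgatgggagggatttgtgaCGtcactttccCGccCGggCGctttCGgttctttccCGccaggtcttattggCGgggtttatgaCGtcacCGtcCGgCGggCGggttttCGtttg
H1f2: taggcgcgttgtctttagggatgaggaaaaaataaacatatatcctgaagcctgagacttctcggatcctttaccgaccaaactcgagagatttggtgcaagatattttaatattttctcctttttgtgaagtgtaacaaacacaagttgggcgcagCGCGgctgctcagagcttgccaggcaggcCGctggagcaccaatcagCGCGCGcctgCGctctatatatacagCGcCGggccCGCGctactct
H3c6: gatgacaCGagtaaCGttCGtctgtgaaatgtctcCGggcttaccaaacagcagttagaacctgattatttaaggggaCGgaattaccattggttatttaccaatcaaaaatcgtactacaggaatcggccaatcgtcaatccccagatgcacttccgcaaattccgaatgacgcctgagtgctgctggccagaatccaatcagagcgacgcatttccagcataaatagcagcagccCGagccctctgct
H4c3: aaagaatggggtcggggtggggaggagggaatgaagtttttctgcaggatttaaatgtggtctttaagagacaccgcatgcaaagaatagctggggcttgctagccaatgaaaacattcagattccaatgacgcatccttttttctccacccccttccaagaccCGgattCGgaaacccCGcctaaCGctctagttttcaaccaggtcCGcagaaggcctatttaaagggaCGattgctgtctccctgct
H4c11: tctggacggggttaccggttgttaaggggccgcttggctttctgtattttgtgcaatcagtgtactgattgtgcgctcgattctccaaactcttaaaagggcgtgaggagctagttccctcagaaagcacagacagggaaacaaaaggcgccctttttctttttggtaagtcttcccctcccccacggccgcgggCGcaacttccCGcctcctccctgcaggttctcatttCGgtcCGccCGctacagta
H4c8: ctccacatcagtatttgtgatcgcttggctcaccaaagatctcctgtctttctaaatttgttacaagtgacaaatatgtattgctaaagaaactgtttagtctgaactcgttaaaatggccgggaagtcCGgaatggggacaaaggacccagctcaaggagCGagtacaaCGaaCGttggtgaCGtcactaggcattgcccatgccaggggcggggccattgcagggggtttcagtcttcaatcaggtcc
These are chr13:23761250-23761499 (minus strand, H4c1), chr13:23738557-23738806 (plus, H1f2), chr13:23562386-23562635 (minus, H3c6), chr13:23698459-23698708 (minus, H4c3), chr13:21734784-21735033 (plus, H4c11) and chr13:23530794-23531043 (plus, H4c8). The number of kept CpGs was 18 of 27 at H4c1, 11 of 17 at H1f2, 6 of 14 at H3c6, 6 of 9 at H4c3, 5 of 15 at H4c11 and 5 of 9 at H4c8. Their mean level was 2.64% at H4c1, 1.84% at H1f2, 3.00% at H4c11, 1.85% at H4c3 and 1.91% at H4c8. At H3c6 it was 7.66%, where the kept CpGs farthest from the start carried up to 9.83% and the one nearest to it 1.04%. Some CpGs in lower case at H4c1 and H3c6 had values in 25 or 26 libraries and are not in these means.

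Letters known from histone promoters were counted on both strands of the 300 bases. TATAAA, the TATA box, was in 29 of 49 histone promoters (13.6% of all promoters) and CCAAT, the CCAAT box, in 41 of 49 (37.4% of all). CCAAT was in every H1, H2A, H2B and H3 promoter but in 3 of 11 H4 promoters. ATTTGCA, part of the octamer element of H2B genes, was in 5 of 14 H2B and 4 of 12 H2A promoters and in 0 of the others (4.02% of all); H2A and H2B genes often share a divergent promoter, so these counts overlap. GGGCGG, a GC box, was in 18 of 49 histone promoters, or 36.7% (35.7% of all): 8 of 11 H4, 3 of 5 H1, 5 of 12 H2A, 2 of 14 H2B and 0 of 7 H3 promoters. CCGG and GGGCGG can share bases where they adjoin. A match is a description, not a site of binding.

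The histone runs were mostly little methylated. Their median level was 3.45% over 19 runs, 17 of them under 10%, and that of all 22 runs was 3.48%, 18 of them (81.8%) under 10%. For the 18447 runs of the genome the median was 6.23%, with 57.4% under 10%. The core histone genes held no run over 8.88%: the 5 H4 runs lay between 1.54% and 2.72%, the 3 H2B runs between 1.82% and 3.88%, and the 3 H3 runs between 2.28% and 8.88%. The 8 H1 runs had a median of 3.98% and reached 68.6%.

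**Figure D1:**
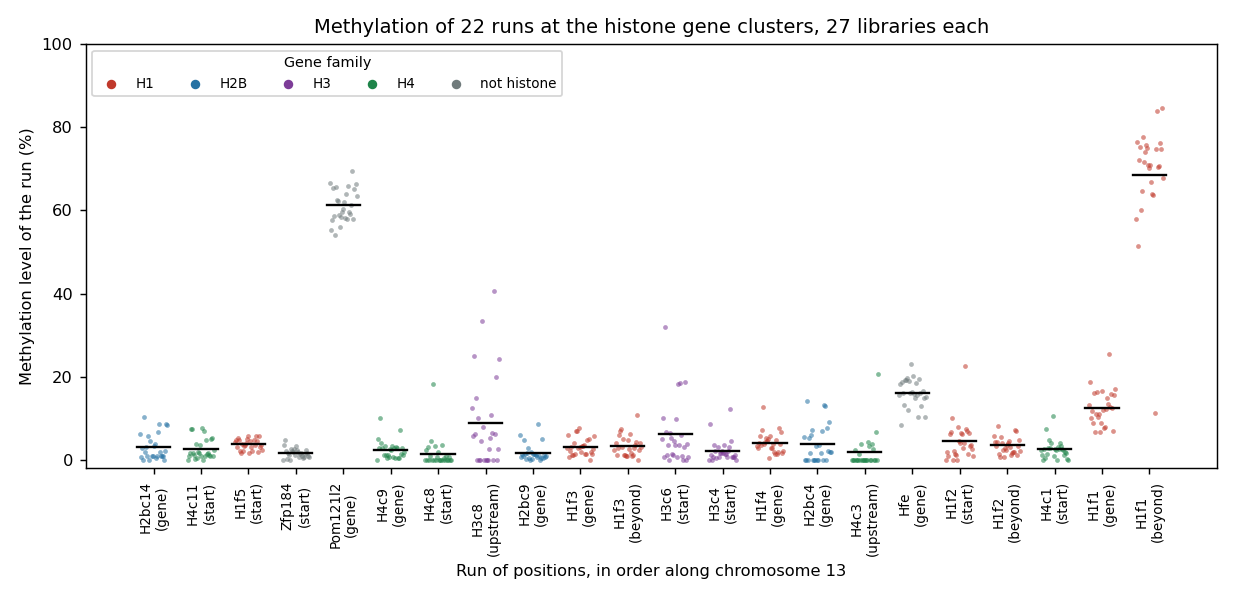
Methylation level (percent, vertical axis) of the 22 runs in their order along chromosome 13 (horizontal axis, not to scale), with 1 point for each of 27 libraries, from 12 h at the left to 60 h at the right of each column, and a bar at the mean. Of the 19 histone runs, 18 have a mean between 1.54% and 12.6%, and the run beyond H1f1 lies at 68.6%.

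Among the H4 genes, H4c8 (run 23530923 to 23531233, from 121 bases before to 189 bases after the start) had the lowest mean of all members, 1.54% ± 3.63 (SD over 27 libraries). It was listed at 0 in 15 of 27 libraries, its median was 0 and its highest value was 18.4% at 24 h, replicate 3; without that library the mean was 0.890%. H4c3 (23698477 to 23698544, all upstream of the start) was alike, with a mean of 1.85% ± 4.23, 0 in 18 libraries and 20.8% in 1 library, 60 h, replicate 3, without which the mean was 1.12%. H4c1 (23761039 to 23761388) had 44 positions across its start at 2.62% ± 2.30, with 0, 2.55% and 10.7% as lowest, median and highest library. H4c11 (2.72% ± 2.47) and H4c9 (2.52% ± 2.23) completed the family. A value of 0 in these runs cannot be bounded, since the number of reads behind a level is unknown.

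H2B genes were as low. H2bc9 (23543015 to 23543194, 250 to 429 bases into the gene) stood at 1.82% ± 2.04, H2bc14 (21722256 to 21722335) at 3.23% ± 3.12 and H2bc4 (23684543 to 23684585) at 3.88% ± 4.48. H2bc4 was at 0 in 10 libraries and at 14.3% in the highest. The strand of H2bc4 is not in the tables used here, so its run is placed only as within the gene.

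Among the core histone runs the largest spread between libraries was at H3c8 and H3c6. Upstream of H3c8 (23534963 to 23535026, 5 positions more than 300 bases before the start) the level was 8.88% ± 10.98. It was 0 in 9 libraries, 5.88% in the median library and 40.7% in the highest, 54 h, replicate 1. H3c6 (23562329 to 23562640) had 6.20% ± 7.56, with 0, 3.73% and 31.9% as lowest, median and highest. H3c4 (23575748 to 23575838), measured across its start, was lower at 2.28% ± 2.69. Runs of the genome under 10% had a median SD of 1.69 points, with quartiles of 1.19 and 2.57 points, and 7 of the 11 core histone runs lay above the upper quartile, H3c4 among them. The genome's runs were not matched for the number of positions averaged, which affects the SD. In the core histone runs it went from 5 (H3c8 and H2bc4) to 44 (H4c1). Within H3c6 the 10 positions more than 150 bases upstream averaged 8.68% ± 12.3, and the 6 positions nearer the start 2.07% ± 2.42. The difference of 6.61 ± 12.9 points had its SD larger than its mean and was above 0 in 15 of 27 libraries.

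The 5 linker histone genes each had their highest kept in-gene position between 358 and 436 bases downstream of the start. In the first 150 bases the level was 1.36% ± 1.14 in H1f5, 2.30% ± 2.68 in H1f4, 2.70% ± 5.63 in H1f2 and 9.23% ± 5.37 in H1f1. H1f3 had no kept position there. The peak position stood at 31.1% ± 9.90 in H1f1 (436 bases), 23.3% ± 15.01 in H1f4 (399 bases), 15.6% ± 17.4 in H1f2 (373 bases), 12.9% ± 8.17 in H1f3 (358 bases) and 10.3% ± 5.92 in H1f5 (367 bases). Neighbouring positions may share information in these data, so a peak is taken as 1 observation and not several. These are the somatic H1 subtypes, which differ mainly in their terminal tails.

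**Figure D2:**
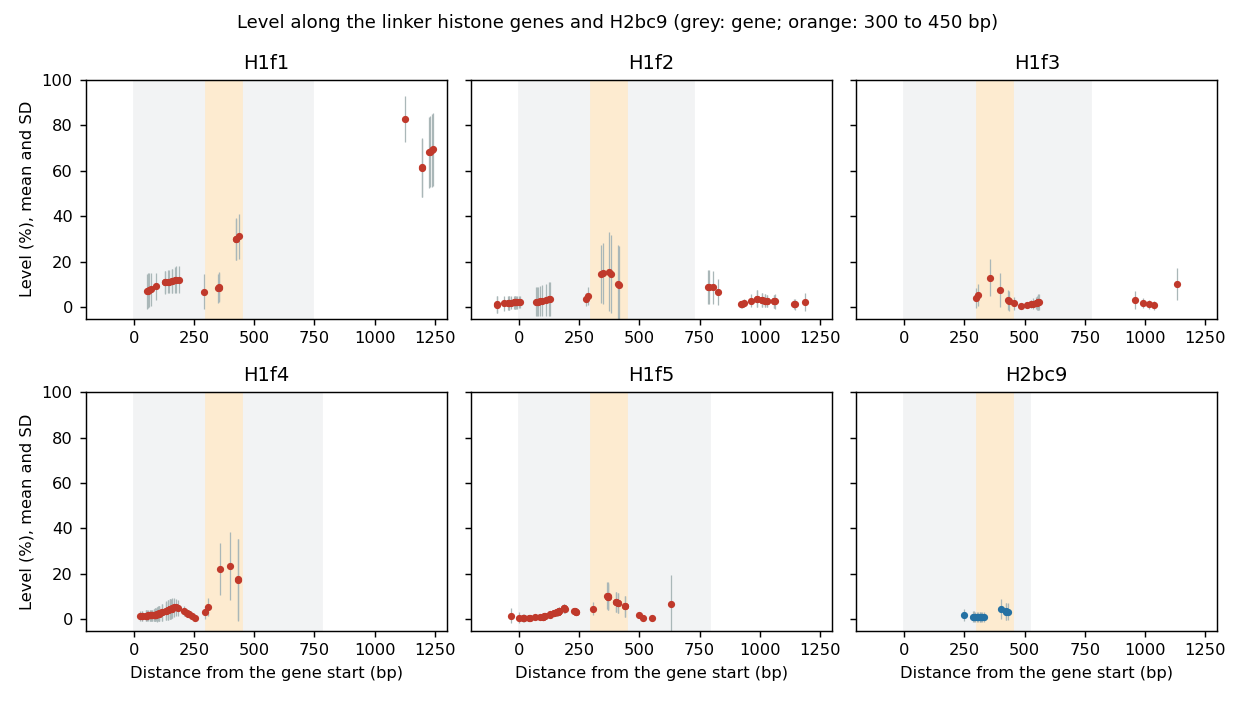
Level of each position (percent, mean and SD over 27 libraries) against distance from the gene start in bp, for the 5 linker histone genes and for H2bc9; the gene is shaded grey and 300 to 450 bp orange. The highest in-gene position of each H1 gene, from 10.3% in H1f5 to 31.1% in H1f1, falls in the orange interval. The highest position of H2bc9 lies there too, at 4.48%, and the mean of H2bc9 over the interval is 1.98%.

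To set this out library by library, the first 300 bases of each gene and the next 150 bases were averaged; the interval was chosen after the values were seen and the differences are given without a test. In H1f4 the level was 2.80% ± 2.503 in the first stretch (47 positions) and 17.2% ± 11.3 in the later one (5 positions). It was higher in the later one in 26 of 27 libraries, by 14.4 ± 11.6 points. H1f1 had 9.91% ± 4.78 and 19.5% ± 5.90, higher in 25 libraries. H1f5 had 2.52% ± 1.14 and 7.84% ± 4.24, higher in 23 libraries.

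H1f2 had 2.95% ± 4.83 and 13.3% ± 14.96, higher in 21 libraries, and the difference of 10.3 ± 13.1 points was smaller than its SD. Its later stretch ranged from 0 through a median of 8.64% to 66.6% at 48 h, replicate 1, and its mean was 11.2% without that library. H1f3 had 4.11% ± 4.47 and 6.33% ± 4.43, higher in 21 libraries, but its first stretch held 1 position, and the difference of 2.23 ± 5.51 points was smaller than its SD.

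In H1f3 and H1f5 the 150 bases after that, from 450 bases on, were measured and had 1.64% ± 2.21 and 1.04% ± 0.981. A single position of H1f5 past 600 bases had 6.91%, and in H1f1 the peak was the last measured position of the gene. Positions with values in fewer libraries were lower next to the peaks of H1f4 and H1f2. In H1f4, 3 positions (23622099 to 23622115) just downstream of the last kept one averaged 0.370% in 13 libraries, and in H1f2 a position (23739231) past the peak and within the same 150 bases had 2.72% in 22 libraries. Of the core histone genes whose strand is in the tables, 1 had kept positions between 300 and 450 bases, H2bc9, with 1.98% ± 2.12 over 11 positions. H2bc13 and H2bc12 had positions there with values in 25 and 23 libraries, at 3.17% and 5.74%. The medians over genes were 2.496% for H1 (4 genes) and 2.29% for core genes (6 genes) in the first 150 bases. They were 4.11% (5 genes) and 2.80% (6 genes) in the next 150 bases, and 13.3% for the 5 H1 genes between 300 and 450 bases. H2bc4 could not be placed, as its strand is missing. With kept positions of 1 core gene placed there, whether the pattern differs between H1 and core genes cannot be told.

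**Figure D3:**
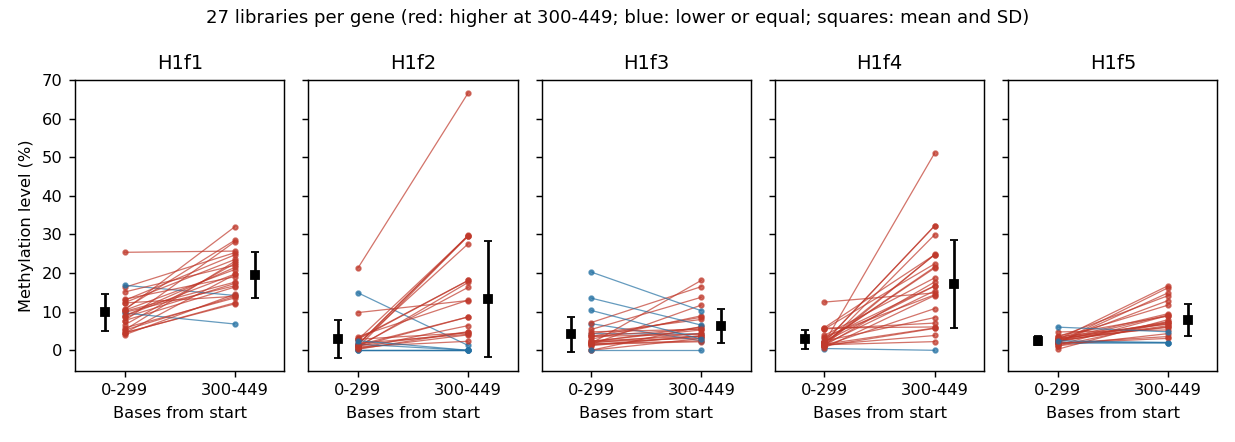
Mean level (percent) of the first 300 bases and of the next 150 bases of the gene in each of 27 libraries, joined by a line, for 5 linker histone genes; squares give the mean and SD. Lines go up in 26 libraries for H1f4, 25 for H1f1, 23 for H1f5 and 21 each for H1f2 and H1f3.

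H1f1 stood apart from the other H1 genes in level. Its run in the gene (23763722 to 23764104) was at 12.6% ± 4.31, with 6.70%, 12.2% and 25.5% as lowest, median and highest library, against 3.26% to 4.57% for the in-gene runs of H1f2, H1f3, H1f4 and H1f5. Beyond its end (23764793 to 23764910, 1125 to 1242 bases from the start, 7 positions) the level was 68.6% ± 13.6. That run was higher than the in-gene run in 26 of 27 libraries, by 56.0 ± 13.99 points. The exception was 48 h, replicate 1, at 11.2%; the next lowest library was at 51.5% and the highest at 84.5%. Without that library the mean was 70.8%. The number of reads behind these values is unknown.

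The runs beyond the ends of H1f2 (23739590 to 23739994) and H1f3 (23555989 to 23556163) had 3.52% ± 2.00 and 3.45% ± 2.52. They were above the in-gene run in 14 and 13 of 27 libraries. High methylation past the gene was thus seen at H1f1 and not at these genes. The runs beyond H1f2 and H1f3 began nearer the gene, at 783 and 957 bases from the start. Between 1050 and 1199 bases, H1f1 had 68.5% ± 10.9 (3 positions), H1f2 2.06% ± 1.82 (6 positions) and H1f3 10.3% ± 7.11 (1 position).

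The 3 runs at other genes of the stretches gave a local reference. Zfp184, a zinc finger gene, had 1.69% ± 1.12 across its start (21944991 to 21945333). Pom121l2 (21981654 to 21982242, 473 to 1061 bases from its start) had 61.2% ± 3.90, with position means from 36.6% to 89.0%. Hfe, which regulates iron uptake, had 16.2% ± 3.41 over 6 positions (23710683 to 23710844). Its position 10 bases from the start stood at 50.2% ± 11.1 and the other 5 at 9.37% ± 4.50. That 1 position was higher in 27 of 27 libraries, by 40.8 ± 13.6 points.

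Positions measured in fewer than 27 libraries, 65 in these stretches, were left out of the runs but reach genes that the runs miss. At the H2A genes H2ac22 and H2ac12, each close to an H2B gene, 7 positions apiece averaged 1.304% in 16 libraries and 1.01% in 15. The H2B genes H2bc13 and H2bc12 had 3.17% (25 libraries) and 5.74% (23 libraries) over 5 positions each. Before the start of H1f1, 5 positions (23763463 to 23763523) averaged 8.86% in 23 libraries, from 7.28% to 11.8%. Between the genes H4c1 and H3c1, 25 positions (23761410 to 23761610) averaged 11.2% in 25 or 26 libraries, from 3.53% to 23.3%. They adjoin the H4c1 run, which would be 5.53% if positions with at least 20 values were kept.

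Histone genes come in near-identical copies, which can affect which reads map. Of the stretches of 40 bases in a promoter, 100% were shared by H2bc23 and H4bc24 (RefSeq's symbol for Hist1h2br, an H2B gene), and 94.3% of those of H4c17 and H4c18 were found in the other. H2ac23 shared 87.7% with H4bc24, and H2ac24 shared 74.3% with H2bc23. None of these 6 genes had a kept position. Of the genes with kept positions, H4c11 shared 18.8% with H4c12. How reads that map to several places were handled is stated neither in the labels nor in the table.

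Testis histone genes of the same chromosome were measured outside the 2 stretches. H2ac1 and H2bc1, which encode the histones TH2A and TH2B of male germ cells, share a divergent start and the same 44 positions (windows within 23933437 to 23935156). Their level was 85.8% ± 2.08, with 80.8%, 86.3% and 89.6% as lowest, median and highest library. This lies above every histone run of the clusters in mean level. The testis linker histone gene H1f6, within the stretches, had no kept position.

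Other histone genes and their regulators came from lists matched to gene windows, from 1000 bp outside to 500 bp inside the start (both ends where strand was missing). The replication-dependent genes of other chromosomes had a median of 3.84% over 11 windows of 10 genes, 9 windows under 10%, beside 3.59% for all 16330 windows. The highest were H2bu2 (25.96% ± 9.39), H2ac21 (10.3% ± 2.96) and the shared window of H2ac20 and H2bc21 (6.02% ± 2.87). Variants transcribed outside S phase had a median of 2.83% over 12 windows. H1f7, a linker histone of spermatids (65.8% ± 3.05), and Macroh2a2, a macroH2A gene (17.1% ± 2.05), were highest, followed by 1 of the 2 H2ax windows (5.09% ± 2.40; the other had 1.66% ± 1.81).

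Regulators of histone genes had a median of 2.29% over 22 windows, 21 under 10%. Npat, the coactivator of histone transcription, stood at 1.89% ± 1.14 and Slbp, which binds the stem-loop, at 2.96% ± 2.32. The highest were the X-linked Cstf2 (35.2% ± 12.1), Lsm10 (7.01% ± 10.7), of the U7 particle that cleaves histone messages, and the cyclin E gene Ccne1 (5.62% ± 2.71). Histone chaperones had a median of 3.05% over 21 windows, 19 under 10%, led by the X-linked Atrx (47.0% ± 32.8) and Rbbp7 (34.6% ± 10.97) and by Chaf1b (6.09% ± 2.20). The 5 windows of the somatic H1 genes had a median of 4.57%. In limma, 0 windows of these lists passed for a rhythm, a time point difference, a trend or 60 h against 12 h. Over all windows 3 passed for a time point difference (0.0184%) and 0 for the other 3 tests; at an unadjusted p under 0.05 the shares of all windows were 4.34%, 4.15%, 4.81% and 5.03% in the order of the tests.

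Whether histone methylation changed with time after the shock was asked with limma over all 18447 runs of the genome. Of the 22 members, 0 passed an adjusted p of 0.05 for a 24 h rhythm, any time point difference, a linear trend or 60 h against 12 h. The share of all runs that passed was 0% for the rhythm, 0.00542% for time point differences, 0% for the trend and 0% for 60 h against 12 h. At an unadjusted p under 0.05 the members numbered 0 (rhythm), 1 (time points), 1 (trend) and 1 (60 h against 12 h), and the shares of all runs were 4.34%, 4.3%, 4.99% and 5.33%. The members' counts are near these shares. The median fitted 24 h amplitude was 0.841 points for the members and 0.870 for all runs, and its median upper 95% limit was 3.12 and 3.01 points, so amplitudes up to such limits lie within the intervals of these runs. For the 427 positions, 0 passed, and 2 (rhythm) and 25 (trend) had an unadjusted p under 0.05, beside 3.91% and 4.48% of all positions. Both rhythm positions lay in Pom121l2, which is not a histone gene, at 843 and 844 bases from its start. Most of the trend positions were close neighbours in the same gene, 726 to 802 bases from its start. The others were at H4c3, H1f5, H4c8 and Hfe. The trend count therefore does not stand for many separate histone positions.

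The mean over the 356 histone positions is given as a description. It was 5.33% ± 0.857 over 27 libraries, from 3.71% (12 h, replicate 3) to 7.60% (18 h, replicate 1). By time point it was highest at 18 h (6.58% ± 0.885; SD, n = 3) and 48 h (6.16% ± 0.451) and lowest at 42 h (4.57% ± 0.646), 12 h (4.72% ± 1.01) and 60 h (4.76% ± 0.131). The means ranged over 2.01 points, against a pooled SD within time points of 0.673 points. With replicate 1 of 18 h left out, 48 h was highest and the time points spanned 1.59 points. At 18 h, 13 of 19 histone runs were above their own mean, and at 42 h 4 of 19 were. The other time points ranged from 5 of 19 (30 h) to 10 of 19 (54 h). These runs share the same libraries, so they are not replicates of a time point. No such count over all runs of the genome is given here.

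The H1f2 run across its start (23738715 to 23739222) had the smallest p for time point differences. Its libraries stood at 6.27%, 6.82% and 10.0% at 18 h and at 22.7%, 7.48% and 7.02% at 48 h. They were at 0, 1.94% and 1.08% at 12 h and at 0, 2.13% and 1.48% at 24 h. These time points were picked after the values were seen; the 18 h and 48 h libraries did not overlap those of 12 h and 24 h. The time point means ranged over 11.4 points, and limma gave an adjusted p of 0.990 (unadjusted 0.0188); leaving out replicate 1 of 48 h gave 6.70 points. H4c3 (9.21 points) and H4c1 (5.14 points) followed, both with an adjusted p of 0.990, and their ranges were 3.42 points without replicate 3 of 60 h and 2.80 points without replicate 3 of 30 h.

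H4c3 had the smallest p for the trend and for 60 h against 12 h. Its libraries were at 6.84%, 0 and 20.8% at 60 h and all listed at 0 at 12 h, and 0 was also the value of 1 library at 60 h, so the groups overlapped. The slope was 5.33 points per 48 h (SE 2.29, 95% interval 0.640 to 10.0; limma, adjusted p 0.976), and 60 h minus 12 h was 9.21 points (SE 3.05, interval 2.84 to 15.6; adjusted p 0.876). Without replicate 3 of 60 h these were 2.02 and 3.42 points. Pom121l2 came next, with a slope of 3.96 points (SE 2.19) and a difference of 5.15 points (SE 3.08), which was 8.46 and 2.88 points without replicates 1 and 2 of 12 h. Zfp184 had a slope of -0.977 points (SE 0.696; -0.444 without replicate 3 of 12 h) and a difference of -1.64 points (SE 1.01), which was -3.04 and -0.646 points without replicates 1 and 3 of 12 h. Pom121l2 and Zfp184 did not pass in limma either, with adjusted p-values of 0.964 or more.

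For the 24 h rhythm the smallest p-values belonged to H2bc4, H3c8 and H1f2, all with an adjusted p of 0.980 in limma. H2bc4 had a fitted amplitude of 2.78 points (SE 1.11, upper 95% limit 5.83). Its libraries stood at 0, 13.3% and 12.9% at 48 h, at 3.3%, 0 and 0 at 36 h and all at 0 at 30 h. Values of 0 thus occurred at each of these times. H3c8 had an amplitude of 7.07 points (SE 2.87, upper limit 14.5); its libraries were at 40.7%, 6.26% and 20% at 54 h, at 4.62%, 33.3% and 8.07% at 30 h and all at 0 at 36 h. H1f2 had 2.37 points (SE 1.16, upper limit 5.59), or 1.46 points without replicate 1 of 48 h. In H3c8 the pooled SD within a time point was 10.3 points and the time point means ranged over 22.3 points.

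**Figure D4:**
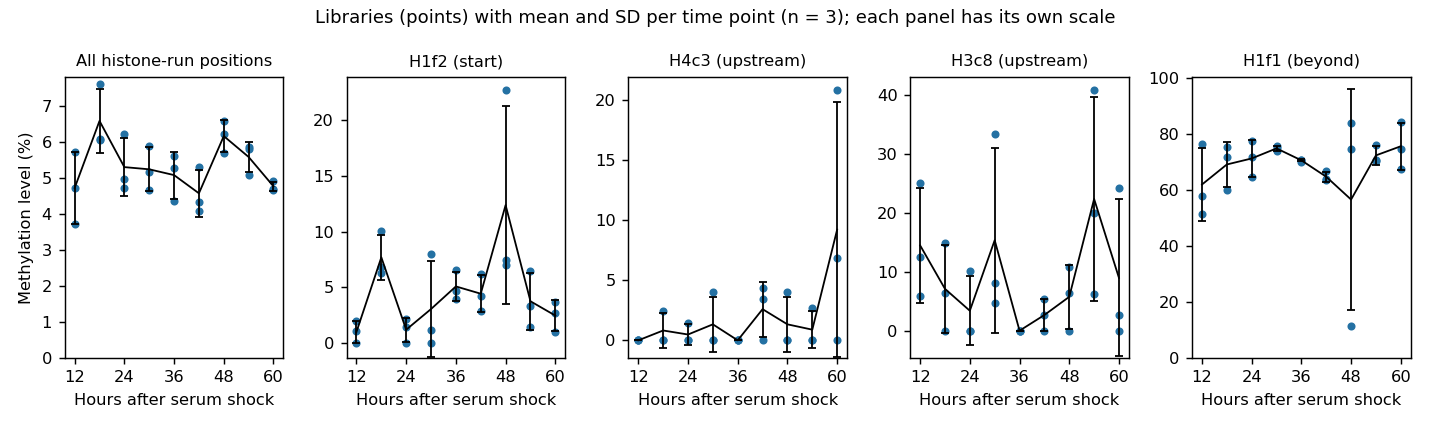
Methylation level (percent; each panel has its own scale) against hours after the serum shock for the mean of 356 histone positions and for the runs of H1f2, H4c3, H3c8 and H1f1 (beyond the gene); points are libraries, and the line and bars give the mean and SD of 3 libraries. Single libraries set the extremes: 22.7% at 48 h in H1f2, 20.8% at 60 h in H4c3, 40.7% at 54 h in H3c8 and 11.2% at 48 h in H1f1.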

How the data were processed

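The authors deposited methylation levels, a fraction from 0 to 1 per position and library, without read counts, so depth is unknown and no counting interval can be given. Per the submitters' processing notes, the build was mm10 and the tools were Bismark 0.14.4, Bowtie2, cutadapt 1.9.1 and Trim Galore 0.4.0. Neither the notes nor the labels state settings, filters or any smoothing. Pairs of member positions 1 bp apart (89) differed by 0.0835 points on average, so such pairs are not independent. These pairs can be both strands of the same CpG, so they cannot show how alike neighbouring CpGs are. Whether separate CpGs share information was not tested.

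Here levels were multiplied to percent and averaged over runs of positions. Positions count from 1: 99.98% of 231325 positions within RefSeq promoters of GRCm38.p6 (equivalent to mm10) fell on a CpG of either strand. limma 3.58.1 (R 4.3.3; data.table, version 1.17.8) was fitted over all 18447 runs, 16330 gene windows or 871894 positions and all 27 libraries, on percentage points, with Benjamini-Hochberg adjustment over all rows of each fit (threshold 0.05). The terms were a 24 h cosine and sine, time point, linear time, and 60 h against 12 h. The rhythm and trend fits were tested on simulated data, with changes added only to runs of intermediate level. Recovery of changes in little methylated runs, as most members are, was not tested. The planned count model for sites could not be used without read counts. The tests of slope and of 60 h against 12 h are two-sided. Python 3.11.15, numpy 2.4.6, pandas 2.3.3 and matplotlib 3.10.9 did the rest.

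Runs were given to a gene they overlap or lie within 500 bp of. Described in full were the 5 highest and 3 lowest histone runs, those from 10% to 90%, the 5 with the largest SD, the 3 with the smallest p in each test, the 3 with the widest range along the run, and testis histone genes. The members and lists were chosen with earlier results of these data known. Exons and untranslated regions are not annotated in the tables used here.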

Additional observations from a re-analysis of the deposited data

How the results depend on the processing

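Of the member runs tested, 0 passed in any of the 4 tests under every alternative tried: M-values (a log2 ratio of methylated to unmethylated share, with an offset of 1 point), gaps of 100 bp, at least 10 positions, the median over positions, a replicate block, and leaving out each library in turn. With gaps of 100 bp runs could split. Shorter runs, H4c3, H2bc4 and H3c8 among them, were not tested where at least 10 positions were asked for. For the rhythm, periods of 20 h and 28 h and linear time as a further term were added, and for the rhythm and trend the library mean as a covariate. The smallest adjusted p over the members lay between 0.965 and 0.995 for the rhythm, 0.782 and 1.00 for time points, 0.934 and 0.998 for the trend, and 0.321 and 1 for 60 h against 12 h. With the replicate block, 0 runs and 0 positions passed. Whether the replicate numbers pair libraries is not given in the labels. Deviations from time point means correlated at 0.00489 on average over 108 same-numbered pairs (-0.0434 to 0.0378). Over 216 other pairs the average was -0.00242. A correlation of deviations over all runs cannot settle whether same-numbered libraries were handled together. Positions called numbered 0 throughout; those with an unadjusted p under 0.05 for the rhythm were between 2 and 20 over the M-value scale and the replicate block, beside 2. The median level of the runs stayed between 3.34% and 3.64% and the mean over all 427 positions (9.94%) between 9.48% and 10.0%. Of single run levels, that of H4c1 moved by more than its SD, to 5.53% where a value in at least 20 libraries was enough. Depth is unknown, which limits every value of 0.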
